A study of Cucurbita pepo with 18 samples.

Results

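The genes described here are those whose deposited description in the seed coat transcriptome of *Cucurbita pepo* names a step of flavonoid metabolism. A gene was taken as a member when its description held chalcone, flavanone, flavonol, flavonoid, or anthocyani, after leaving out lignin enzymes (cinnamoyl-CoA reductase, cinnamyl alcohol dehydrogenase, 4-coumarate CoA ligase). The rule read words and no measured value. It found 64 members among 29484 features, of which 27868 are annotated genes. The protein name itself is a flavonoid name in 41 of them, and 21 are core enzymes that build the flavonoid skeleton. The other 23 matched only through a domain or a second protein listed in the description.

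The libraries came from seed coats of hulled (H) pumpkins and hull-less (HL) pumpkins at 5, 10, and 20 days after pollination (DAP), with 3 biological replicates in each of the 6 groups and 18 libraries in all. No treatment was given. The hull-less accession carries a natural loss-of-function mutation of CpNST1, a NAC transcription factor that switches on secondary walls, and its seed coat does not lignify. Each accession is a single genotype, so effects of this mutation and of any other locus that differs between the accessions cannot be told apart.

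Flavonoids and lignin start from the same precursor, p-coumaroyl-CoA. Chalcone synthase joins it to malonyl-CoA, chalcone isomerase closes the ring, and flavanone 3-hydroxylase makes dihydroflavonols. From there flavonol synthase makes flavonols, while dihydroflavonol reductase, leucoanthocyanidin dioxygenase, and anthocyanidin reductase lead to anthocyanidins and to the flavan-3-ol units of condensed tannins, the brown pigments of many seed coats. P450 hydroxylases set the pattern of the B ring, sugar and acyl transferases and transporters act on the products, and MYB, bHLH, and WD40 proteins regulate the genes.

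Total counts per library were 13827773 to 18443048. The least alike replicates were those of hulled seed coats at 10 DAP, whose log2 CPM correlated pairwise at 0.886 to 0.967 across genes, against 0.953 to 0.987 in the other groups. The secondary wall cellulose synthases CesA4, CesA7, and CesA8 together held 722 to 934 CPM (read counts scaled to library size) in hulled and 13.2 to 16.4 CPM in hull-less seed coats at 20 DAP, while CpNST1 (Cp4.1LG12g04350) itself was at 27.7 to 42.3 CPM in hulled and 141 to 188 CPM in hull-less. Transcripts typical of embryo and endosperm were present at 20 DAP. The 24 genes whose description holds the name of a seed storage protein or an oleosin, among them a translation initiation factor model (Cp4.1LG04g14290), summed to 8805, 6858, and 1334 CPM in hulled replicates 1, 2, and 3 and to 2895, 242, and 94.2 CPM in hull-less replicates 1, 2, and 3. The 39 genes with chlorophyll binding in their description, among them models named for a wall acetylation protein (Cp4.1LG10g05800) and a starch synthase (Cp4.1LG19g06290), summed to 2043 to 2403 CPM in hulled and 4851 to 5963 CPM in hull-less at that stage. At 20 DAP 1 of the storage genes had no count in any hulled library and 2 had none in any hull-less library. The part of the tissues behind these transcripts in the results at 20 DAP was not tested. In such bulk RNA, fewer cells of a type and less RNA per cell cannot be told apart.

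Most members were expressed, which does not hold for every step of the pathway. The models named for dihydroflavonol reductase and leucoanthocyanidin dioxygenase had few counts in every library, as given below. A mean of at least 1 FPKM (fragments per kilobase of gene model, scaled to library size, the deposited value used here to compare levels between genes) was reached in at least 1 group by 48 members and a mean of at least 10 by 31, while 15 passed the filter of no comparison. At most 3 counts in every library were held by 7 members, of which 5 had none. The share of all genes that reached these FPKM levels is not given here. The members lie on 17 linkage groups and on the unplaced scaffolds. Within 20 kb of another member lay 14 of them. The gene models of 9 members also hold a domain of an unrelated protein family, and those of 12 overlap a feature on the opposite strand. The strand setting of the counting was not given in the sources used here, so reads of such overlapping pairs cannot be told apart.

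Chalcone synthase, the entry enzyme, was represented by 4 gene models, of which 1 carried nearly all counts. Cp4.1LG03g06560 lies in a tandem array with Cp4.1LG03g06570 and Cp4.1LG03g06590 on LG03 (3982004 to 3990303, minus strand, coordinates of the deposited table). In hulled seed coats its FPKM was 23.7, 22.1, and 22.5 at 5 DAP, then 13.7, 10.6, and 10.95 at 10 DAP, with 11.6, 13.5, and 8.35 by 20 DAP. The hull-less values were 28.7, 22.04, and 29.5, then 23.9, 30.8, and 30.8, and finally 1.27, 2.08, and 1.68. The hull-less coats thus stayed high until 10 DAP and lay below every hulled library at 20 DAP. Its log2FC (the log2 of the fold change, hull-less over hulled) was 0.23 at 5 DAP, 1.28 ± 0.17 (SE) at 10 DAP (edgeR, adjusted p = 0.00847), and -2.72 ± 0.26 at 20 DAP (edgeR, adjusted p = 0.000464). With the replicate number as a block the adjusted p at 10 DAP was 0.0591. The other chalcone synthase models were close to 0, with at most 15 counts in any library for Cp4.1LG03g06570, 6 for Cp4.1LG12g01070, and 0 for Cp4.1LG03g06590. Because these copies may share sequence, how reads were split among them is uncertain.

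Chalcone isomerase (Cp4.1LG13g09600) did not follow the synthase. Its FPKM at 20 DAP was 30.7, 34.7, and 38.2 in hulled and 32.9, 34.95, and 47.5 in hull-less seed coats, so the accessions overlapped. Its log2FC was 0.34 ± 0.12 at 5 DAP, 0.18 ± 0.27 at 10 DAP, and 0.17 ± 0.16 at 20 DAP, and none passed the test. The second isomerase-named model, Cp4.1LG01g11950, had at most 4 counts in any library.

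The 2-oxoglutarate dioxygenases are the family of flavanone 3-hydroxylase and flavonol synthase. At 20 DAP hull-less seed coats had less of 5 of the 7 tested dioxygenases, and 0 were higher, with a median log2FC of -1.83 beside -0.01 over all genes tested. Among the 5 is Cp4.1LG14g10150, which passed the filter on low counts only with its hulled libraries. Its call was lost in 4 of 6 fits with a library left out. Of all genes tested 12.7% were called lower and 8.37% higher at this stage. At 5 DAP 1 was higher and 1 lower among 6, beside 5.53% and 6.43% of all genes. At 10 DAP none of 6 was called, beside 5.42% of all genes called higher and 5.56% lower.

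Flavanone 3-hydroxylase Cp4.1LG08g09200 (naringenin 3-dioxygenase, LG08, 7238436 to 7242855, plus strand) was lower in hull-less seed coats at both ends of the series. In hulled seed coats its FPKM was 10.1, 16.5, and 10.5 at 5 DAP, then 7.20, 1.82, and 2.89 at 10 DAP, with 24.3, 18.02, and 25.1 by 20 DAP. The hull-less values were 3.08, 3.04, and 3.27, then 0.731, 2.08, and 3.30, and finally 0.772, 0.715, and 0.356. The groups were apart at 5 and 20 DAP and overlapped at 10 DAP. Its log2FC was -1.98 ± 0.21 at 5 DAP (edgeR, adjusted p = 0.000953) and -5.16 ± 0.29 at 20 DAP (edgeR, adjusted p = 5.24e-05), the lowest value among the core enzymes at any stage.

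The second naringenin 3-dioxygenase, Cp4.1LG14g10150, appeared late. It had 0 counts in all 6 hulled libraries of 5 and 10 DAP and 65, 65, and 64 counts (3.17, 3.52, and 3.16 FPKM) at 20 DAP in hulled seed coats, at least 29.8-fold above the 5 DAP floor of 3 counts per library. In hull-less seed coats at 20 DAP it had 22, 13, and 0 counts. With a log2FC of -2.62 ± 0.83 (edgeR, adjusted p = 0.0413) it was called lower, and this call was lost when hulled replicate 1, 2, or 3 or hull-less replicate 2 of 20 DAP was left out (adjusted p = 0.0920 to 0.115), and with the replicate block the adjusted p was 0.0523. Flavanone 3-dioxygenase Cp4.1LG14g03020 ranged from 12.7 to 17.02 FPKM in hulled and from 9.94 to 12.6 FPKM in hull-less seed coats at 20 DAP, which is a log2FC of -0.43 ± 0.15 that did not pass the test (edgeR, adjusted p = 0.0592).

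Among the flavonol synthases, Cp4.1LG02g10200 (LG02, 9768792 to 9770552, plus strand) changed most at 20 DAP. Its FPKM in hulled seed coats was 26.1, 20.8, and 30.7 at 5 DAP, then 28.0, 6.56, and 7.73 at 10 DAP, with 182, 159, and 306 by 20 DAP. The hull-less values were 32.8, 38.3, and 43.5, then 29.5, 20.6, and 25.5, and 17.6, 18.5, and 4.21 at 20 DAP. Every hulled library of 20 DAP stood above every other library of this gene. At 20 DAP its log2FC was -4.0 ± 0.58 (edgeR, adjusted p = 0.00224). At 10 DAP it was 0.84 and not called, while without hulled replicate 1 of that stage it was 1.81 and called higher (edgeR, adjusted p = 0.00395).

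Flavonol synthase Cp4.1LG04g08250 (LG04, 3204128 to 3206475, plus strand) had the highest mean level of any member in hulled seed coats at 20 DAP, 309.7 ± 24.1 FPKM (SD, n = 3). Its FPKM was 27.0, 23.3, and 28.0 in hulled against 56.1, 49.2, and 58.6 in hull-less seed coats at 5 DAP, while at 20 DAP these were 289.9, 336, and 303 against 154, 109, and 113. The order of the accessions turned over between these stages without overlap at either. Its log2FC was 1.06 ± 0.11 at 5 DAP (edgeR, adjusted p = 0.000804), -0.73 at 10 DAP, not called, and -1.29 ± 0.17 at 20 DAP (edgeR, adjusted p = 0.00163).

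Flavonol synthase Cp4.1LG01g20480 was at 14.8, 8.44, and 16.2 FPKM in hulled and 2.70, 3.60, and 4.70 FPKM in hull-less seed coats at 20 DAP. The groups were apart, with a log2FC of -1.83 ± 0.30 (edgeR, adjusted p = 0.00353). Its model overlaps Cp4.1LG01g20400 on the opposite strand and also holds a domain of another family. The flavonol synthase Cp4.1LG13g04730 stayed between 22.7 and 45.2 FPKM in all 18 libraries, and its log2FC was -0.30 ± 0.10, 0.08 ± 0.12, and -0.07 ± 0.11 at 5, 10, and 20 DAP, none of them called. That model too holds a domain of another family. The remaining model of this name, Cp4.1LG04g09110, had at most 4 counts in any library.

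The P450 hydroxylases of the B ring did not share the direction of the dioxygenases at 20 DAP. Their change from 5 to 20 DAP differed by call in 1, Cp4.1LG04g14800, where it was lower in hull-less (-1.33 ± 0.37, edgeR, adjusted p = 0.0206). At 20 DAP 2 of the 3 were higher in the hull-less accession and 0 were lower, beside 8.37% and 12.7% of all genes. Flavonoid 3′-hydroxylase Cp4.1LG03g15110 (LG03, 8250512 to 8252000, plus strand, with a short model of 423 bases) was at 6.95, 1.53, and 1.80 FPKM in hulled and 7.35, 6.07, and 4.66 FPKM in hull-less seed coats at 5 DAP. At 10 DAP it reached 39.9, 16.1, and 44.9 FPKM in hulled and 530.1, 390.1, and 475 FPKM in hull-less. At 20 DAP it was at 103, 125, and 113 FPKM in hulled and 503, 305, and 608 FPKM in hull-less. Each hull-less library of 10 and 20 DAP was above each hulled library of any stage. At 5 DAP it was not called, while without hulled replicate 1 of that stage the log2FC was 1.85 and called higher (edgeR, adjusted p = 0.0139). Its log2FC was 3.78 ± 0.43 at 10 DAP (edgeR, adjusted p = 0.00587) and 2.07 ± 0.26 at 20 DAP (edgeR, adjusted p = 0.00123).

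The second flavonoid 3′-hydroxylase, Cp4.1LG04g14800, was at 4.005, 5.35, and 4.62 FPKM in hulled and 11.3, 8.30, and 9.08 FPKM in hull-less seed coats at 5 DAP. At 10 DAP it fell to 0.556, 0.945, and 0.368 FPKM in hulled, while hull-less libraries held 5.52, 4.79, and 7.23 FPKM. Its log2FC was 1.04 ± 0.16 at 5 DAP (edgeR, adjusted p = 0.00380), 3.23 ± 0.39 at 10 DAP (edgeR, adjusted p = 0.00662), and -0.30 at 20 DAP, where the groups overlapped. The call at 5 DAP was lost without hulled replicate 1 or hull-less replicate 1 of 5 DAP, which left log2FC values of 0.94 and 0.89, and the replicate block gave an adjusted p of 0.0516 at 10 DAP. Flavonoid 3′,5′-hydroxylase Cp4.1LG05g02550 was nearly silent at 10 DAP (0.170, 0, and 0.0701 FPKM in hulled and 0 in all hull-less libraries) and later rose to 7.10, 13.6, and 10.8 FPKM in hulled and 27.9, 26.1, and 58.9 FPKM in hull-less at 20 DAP, a log2FC of 1.85 ± 0.38 (edgeR, adjusted p = 0.00862).

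**Figure D1:**
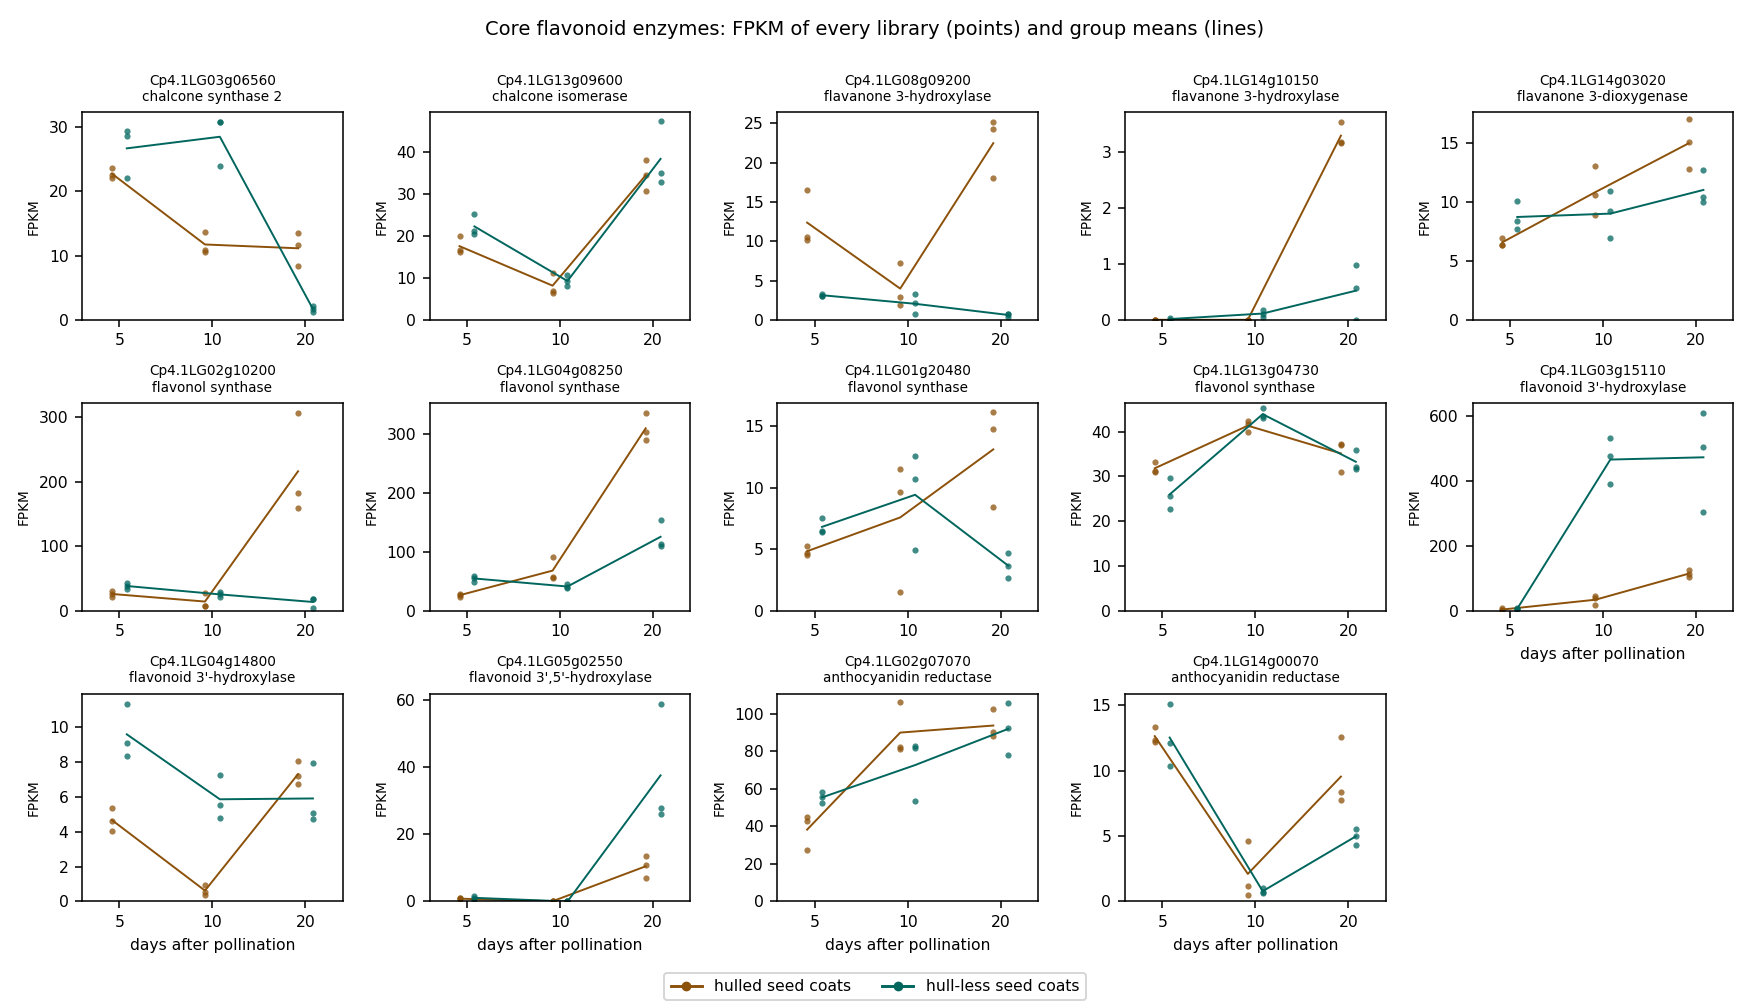
FPKM of the 14 core enzymes with a mean of at least 1 CPM in a group, against days after pollination, with 1 point per library, a line through the group means, and a separate linear axis from 0 in each panel. At 20 DAP the hulled libraries of flavonol synthase Cp4.1LG02g10200 (159 to 306 FPKM) lie above the hull-less ones (4.21 to 18.5 FPKM), and those of flavonoid 3′-hydroxylase Cp4.1LG03g15110 (103 to 125 FPKM) lie below them (305 to 608 FPKM).

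The branch towards anthocyanidins was unevenly represented. The model named dihydroflavonol 4-reductase, Cp4.1LG00g15240, had at most 6 counts in any library, with 4, 5, and 6 counts in hulled and 2, 2, and 0 counts in hull-less seed coats at 20 DAP. The only member named for leucoanthocyanidin dioxygenase, the anthocyanidin-forming enzyme, Cp4.1LG08g12420, had at most 2 counts in any library. Anthocyanidin reductase, the next enzyme towards flavan-3-ols, was abundant. Cp4.1LG02g07070 lay between 27.2 and 106 FPKM in all 18 libraries, at 90.5, 103, and 88.0 FPKM in hulled and 77.8, 92.5, and 105 FPKM in hull-less seed coats at 20 DAP. Its model also holds a domain of another family. Hull-less over hulled, its log2FC was 0.53 ± 0.19, -0.31 ± 0.24, and -0.02 ± 0.15 at 5, 10, and 20 DAP, with no call. The second anthocyanidin reductase, Cp4.1LG14g00070, was at 12.6, 7.75, and 8.33 FPKM in hulled and 5.57, 4.34, and 5.03 FPKM in hull-less at 20 DAP. Its log2FC of -0.93 ± 0.23 passed the adjusted p (edgeR, 0.0174) and missed the limit of 1, which it passed without hulled replicate 2 or 3 or hull-less replicate 1 of 20 DAP (-1.06, -1.02, and -1.02).

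The calls over all members can be set against those over all genes. A gene was called (a DEG) at an adjusted p of at most 0.05 in edgeR's quasi-likelihood test and a log2FC of 1 or more in either direction. At 5 DAP, 43 members were tested, with 4 higher (9.30%) and 4 lower (9.30%) in the hull-less accession, beside 5.53% and 6.43% of the 22597 genes tested. At 10 DAP, 5 of 38 were higher (13.2%), beside 5.42% of all genes. None was lower, beside 5.56% of all genes, with 4 members lower at an unadjusted p under 0.05 and 1 lower in DESeq2. Without hull-less replicate 2 or 3 of 10 DAP 3 members were called, and with the replicate block 1 was. In a fit of all 18 libraries, which pools the spread of the groups, 7 members were higher and 5 lower at 10 DAP. The shares of all genes called in that fit and with the block are not given here, so these counts are not read as a trait of the members.

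At 20 DAP, 8 of 45 members were higher (17.8%), beside 8.37% of all genes, and 12 were lower (26.7%), beside 12.7%. The median log2FC of the members was -0.19, beside -0.01 over all genes tested. The core enzymes held 2 of the higher and 6 of the lower calls among 14 tested. The lower ones include Cp4.1LG14g10150, which passed the filter only with its hulled libraries. Leaving out the 3 libraries of 20 DAP with the most storage transcripts (hulled replicates 1 and 2 and hull-less replicate 1), in a fit of all other libraries that leaves 1 hulled library of this stage, kept 12 of the 20 calls and added 1. Among the calls lost, the log2FC then was 2.04 for Cp4.1LG03g15110, 2.0 for Cp4.1LG05g02550, and 1.24 for Cp4.1LG02g02340. It was -1.94 for Cp4.1LG01g20480, -3.39 for Cp4.1LG14g10150, and -4.65 for Cp4.1LG08g10720, so all of these stayed above 1 in size. For Cp4.1LG05g14850 it was -0.80. CpNST1, called higher in the main test (log2FC 2.25), had a log2FC of 2.46 in this fit and lost its call too. With 1 hulled library left, a lost call cannot be told apart from an effect of the smaller number of libraries.

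**Figure D2:**
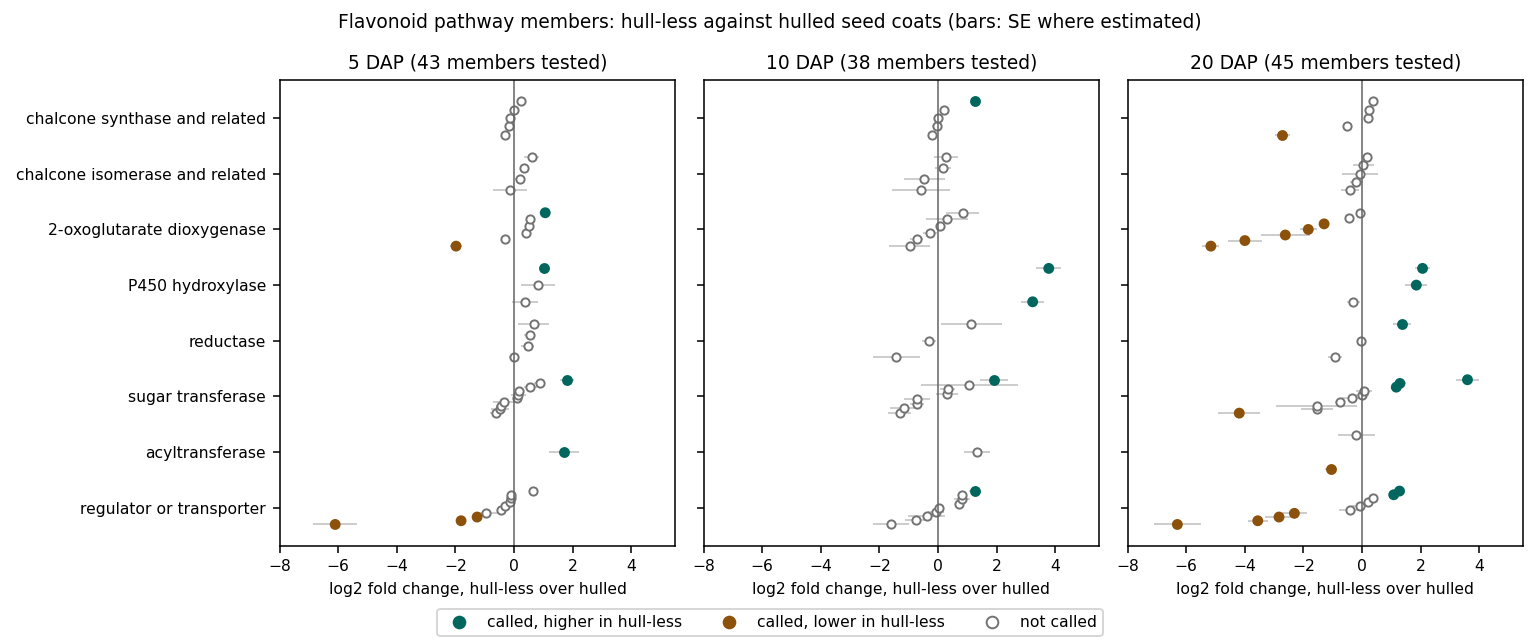
Log2FC of hull-less over hulled for every tested member (points, with SE bars) by role class at 5, 10, and 20 DAP, filled where called. At 20 DAP 5 of 7 dioxygenases are called lower and 2 of 3 P450 hydroxylases higher in hull-less seed coats. The 5 include Cp4.1LG14g10150, which passed the filter only with its hulled libraries.

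Sugar transferases, which make flavonoids soluble and stable, formed the largest class with 16 members. At 20 DAP 3 of 10 tested were higher and 1 was lower in the hull-less accession, beside 8.37% and 12.7% of all genes. The lower one was Cp4.1LG08g10720, whose counts cannot be assigned to the transferase, as given below. The higher ones include the low-count Cp4.1LG00g06130, which passed the filter only with its hull-less libraries. Flavonoid 3-O-glucosyltransferase Cp4.1LG02g02340 (LG02, 3865166 to 3868927, minus strand) was at 221, 143, and 198 FPKM in hulled and 445, 395, and 526 FPKM in hull-less at 20 DAP, after 12.8 to 40.0 and 9.02 to 11.1 FPKM at 10 DAP. No hulled library of 20 DAP reached the hull-less ones, and the log2FC was 1.29 ± 0.20 (edgeR, adjusted p = 0.00311). Its neighbour Cp4.1LG02g02370 (3882383 to 3883816, plus strand) was at 55.1, 73.3, and 52.4 FPKM in hulled and 36.9, 40.3, and 29.0 FPKM in hull-less, a log2FC of -0.76 that was not called. Cp4.1LG06g05600, of the same name, was at 5.41, 5.79, and 4.56 FPKM in hulled and 12.5, 11.98, and 10.8 FPKM in hull-less seed coats at 20 DAP (log2FC 1.17 ± 0.13, edgeR, adjusted p = 0.000823).

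Anthocyanidin 3-O-glucosyltransferase Cp4.1LG19g09500 was almost confined to 20 DAP, where it was at 100.4, 147, and 109 FPKM in hulled and 56.4, 54.0, and 10.9 FPKM in hull-less seed coats, against at most 0.156 FPKM in any library of 5 and 10 DAP. The groups did not overlap at 20 DAP, and the log2FC of -1.55 was not called. With the replicate block it was -1.81 and called lower (adjusted p = 0.0402). Without hull-less replicate 1 or 3 of 20 DAP it was -1.86 and -1.10, also called (adjusted p = 0.0489 and 0.00489). Further calls came from DESeq2 (-1.57, adjusted p = 0.048), the filter on 10 counts per library (-1.60, 0.0467), and the fit of all 18 libraries (-1.54, 0.0356). Limma on log2(FPKM + 1) called it as well (-1.82, adjusted p = 0.048). The remaining alternatives left it uncalled. A gene of the same name, Cp4.1LG01g09480, chosen here after its values were seen, was at 7.39, 6.75, and 0.848 FPKM in hulled and 4.89, 0.114, and 0.0431 FPKM in hull-less at 20 DAP. Within each accession these levels fell in the same order as the storage transcripts given above, whose part in them was not tested. The low-count Cp4.1LG00g06130, also named after its values were seen, was at 0.408, 0.259, and 0.177 FPKM in hulled and 2.94, 3.89, and 3.59 FPKM in hull-less (log2FC 3.60 ± 0.39, edgeR, adjusted p = 0.000748), and its model overlaps Cp4.1LG00g06140. Cp4.1LG14g01440 was at 0.188, 0.0784, and 0.193 FPKM in hulled and 0.609, 0.466, and 0.718 FPKM in hull-less at 10 DAP, and its call there (log2FC 1.91 ± 0.47, edgeR, adjusted p = 0.0433) was lost without any 1 of the 6 libraries of that stage (adjusted p = 0.0519 to 0.145).

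The most abundant member by far was Cp4.1LG08g10720, named UDP-glycosyltransferase 73C6 (LG08, 8161158 to 8163948, minus strand). Its model joins this domain to a thaumatin domain, so its counts cannot be assigned to the transferase. At 5 DAP it was at 1070.3, 697, and 988 FPKM in hulled and 2337, 3504, and 3774 FPKM in hull-less seed coats. At 10 DAP the replicates split widely, with 851, 9.20, and 925 FPKM in hulled and 1852, 1872, and 52.6 FPKM in hull-less. By 20 DAP 2.02, 2.11, and 2.90 FPKM remained in hulled and 0.152, 0.214, and 0 FPKM in hull-less. The groups were apart at 5 and 20 DAP in opposite directions, with log2FC values of 1.80 ± 0.23 (edgeR, adjusted p = 0.00207) and -4.19 ± 0.72 (edgeR, adjusted p = 0.00433). In the fit of all 18 libraries, which shares the spread of 10 DAP, the adjusted p at 5 DAP was 0.350. Because this gene dominated the sum over all members (7338 to 11318 CPM in hull-less at 5 DAP), sums are read here only for the 41 members with a flavonoid name of their own, which held 600.6 to 650.6 CPM in hulled and 724 to 801 CPM in hull-less at 5 DAP, and 2099 to 2278 and 1787 to 2139 CPM at 20 DAP.

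Of the 6 acyltransferases, coumaroyl-CoA:anthocyanidin 3-O-glucoside coumaroyltransferase Cp4.1LG05g14850 was the highest. It was at 0.286, 0.0516, and 0.159 FPKM in hulled and 0.605, 0.431, and 0.595 FPKM in hull-less at 5 DAP, at 2.88, 9.30, and 6.399 against 21.5, 11.9, and 13.4 FPKM at 10 DAP, and at 9.91, 12.8, and 9.16 against 4.67, 4.25, and 6.13 FPKM at 20 DAP. The hull-less libraries were above the hulled ones at 5 and 10 DAP and below them at 20 DAP. Its log2FC was 1.70 ± 0.51 at 5 DAP (edgeR, adjusted p = 0.0466), 1.33 at 10 DAP, not called, and -1.07 ± 0.19 at 20 DAP (edgeR, adjusted p = 0.00522). The call at 5 DAP was lost without hulled replicate 3 or any 1 hull-less library of that stage (adjusted p = 0.0877 to 0.131) and with the replicate block (adjusted p = 0.0519). At 20 DAP the value missed the limit of 1 when hulled replicate 2 (-0.91) or hull-less replicate 2 (-0.97) was dropped.

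Transporters of the MATE family carry flavonoids into the vacuole, and 3 members are named after DETOXIFICATION 35, which in Arabidopsis acts in flavonoid transport. All 3 were lower in the hull-less accession at 5 DAP, where 6.43% of all genes were, and 2 of them at 20 DAP as well, where 12.7% of all genes were. Cp4.1LG20g02000 was at 6.07, 5.01, and 6.27 FPKM in hulled and 1.28, 1.80, and 1.87 FPKM in hull-less at 5 DAP, and at 2.04, 1.41, and 1.48 against 0.145, 0.161, and 0.102 FPKM at 20 DAP. This gave a log2FC of -1.81 ± 0.17 (edgeR, adjusted p = 0.000633) and -3.56 ± 0.33 (edgeR, adjusted p = 0.000396), and its model overlaps Cp4.1LG20g01940. Cp4.1LG09g10660, which fell short of the count limit for naming and was added after its values were seen, had 37, 40, and 19 counts in hulled and 1, 0, and 0 counts in hull-less libraries at 5 DAP. At 20 DAP it had 54, 132, and 200 counts against 3, 2, and 0, a hulled to hull-less ratio of 83.8 with a counting interval of 35.6 to 259.6 (95%, exact, counting error only). Cp4.1LG13g02610 was at 18.2, 25.1, and 21.7 FPKM in hulled and 9.40, 8.13, and 9.55 FPKM in hull-less at 5 DAP (log2FC -1.26 ± 0.13, edgeR, adjusted p = 0.000914). At 10 DAP the order was the opposite, with 34.03, 33.7, and 34.98 FPKM in hulled and 50.09, 64.4, and 67.6 FPKM in hull-less, and a log2FC of 0.82 that passed the adjusted p (edgeR, 0.0210) and missed the limit of 1. The groups overlapped at 20 DAP.

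The regulators did not move as a block. The homeodomain protein ANTHOCYANINLESS 2, needed for anthocyanin in subepidermal cells of Arabidopsis, gave its name to 4 members. Cp4.1LG03g17000 was at 11.9, 4.52, and 10.9 FPKM in hulled and 1.95, 2.20, and 1.31 FPKM in hull-less at 20 DAP (log2FC -2.31 ± 0.41, edgeR, adjusted p = 0.00515). Cp4.1LG14g05990 was at 9.54, 11.1, and 16.7 FPKM in hulled and 2.21, 2.35, and 0.587 FPKM in hull-less (-2.83 ± 0.48, edgeR, adjusted p = 0.00421). Cp4.1LG17g03490 ran against both. It was at 16.9, 14.6, and 20.0 FPKM in hulled and 33.3, 41.6, and 47.8 FPKM in hull-less at 10 DAP, and at 11.5, 10.7, and 8.68 against 21.3, 29.3, and 24.0 FPKM at 20 DAP. Its log2FC was 1.25 ± 0.20 (edgeR, adjusted p = 0.0135) and 1.28 ± 0.16 (edgeR, adjusted p = 0.00140), and the call at 10 DAP was lost without hull-less replicate 2 or 3 of that stage (adjusted p = 0.0613 and 0.0535) and with the replicate block (0.0501). The fourth, Cp4.1LG12g00020, was called at no stage.

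Of the WD40 members, Cp4.1LG03g06420 was called at no stage, with log2FC values of -0.15, 0.05, and 0.39 at 5, 10, and 20 DAP. Cp4.1LG04g06560, named LWD1 after an Arabidopsis clock protein related to the petunia pigment regulator AN11, was at 18.05, 18.5, and 18.1 FPKM in hulled and 31.7, 40.8, and 42.4 FPKM in hull-less at 20 DAP. Every hull-less library was above every hulled one at that stage, and the log2FC was 1.08 ± 0.13 (edgeR, adjusted p = 0.00104), falling to 0.99 with upper-quartile scaling. At 5 and 10 DAP its log2FC was 0.66 and 0.72 (edgeR, adjusted p = 0.00320 and 0.0301), under the limit of 1. The difference between the accessions in its change from 5 to 20 DAP was not called (0.43, edgeR, adjusted p = 0.129). The MYB member named after C1, the maize activator of anthocyanin genes, Cp4.1LG02g17570, was called at no stage between the accessions. Other genes of the pathway were read from lists of entry enzymes and regulators outside the members. Cinnamate 4-hydroxylase, which acts before flavonoids and lignin part, was lower in the hull-less accession at 20 DAP in 2 of 2 tested genes, beside 12.7% of all genes. Of the 12 tested genes with a 4-coumarate CoA ligase description 0 were higher and 1 was lower, beside 8.37% and 12.7% of all genes. Only Cp4.1LG05g11970 and Cp4.1LG11g05940 of that list carry the enzyme's own name. The others are named 4-coumarate CoA ligase-like or oxalate CoA ligase, so these counts do not describe that step alone. Of the 3 genes with a transparent testa description, Cp4.1LG14g07030 (TRANSPARENT TESTA GLABRA 1, the WD40 regulator of tannin and trichome genes in Arabidopsis) and Cp4.1LG03g02050 (WRKY 44) were higher at 20 DAP, with log2FC values of 1.29 ± 0.34 (edgeR, adjusted p = 0.0211) and 1.19 ± 0.18 (edgeR, adjusted p = 0.00262). The WRKY 44 gene had the opposite order earlier, with a log2FC of -1.35 ± 0.11 at 5 DAP (edgeR, adjusted p = 0.000330), called lower, and of -1.95 ± 0.62 at 10 DAP, not called (edgeR, adjusted p = 0.0868).

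**Figure D3:**
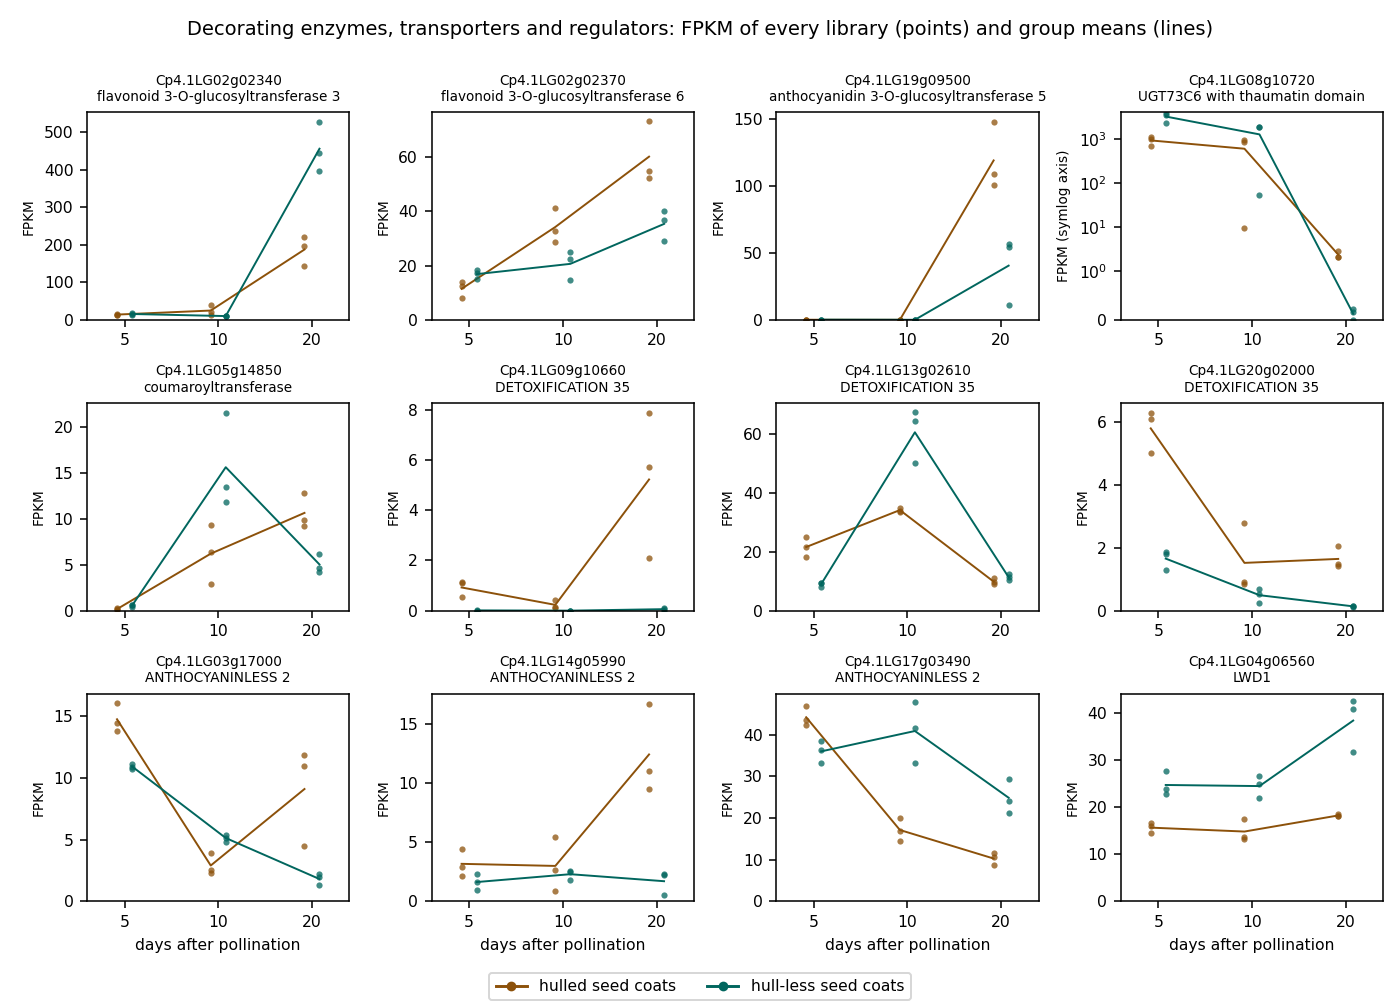
FPKM of 12 decorating enzymes, transporters, and regulators against days after pollination, with 1 point per library and a line through the group means, on linear axes from 0 except for Cp4.1LG08g10720, whose axis is linear up to 1 FPKM and logarithmic above. Cp4.1LG02g02340 is higher in hull-less (395 to 526 FPKM) than in hulled libraries (143 to 221 FPKM) at 20 DAP, and Cp4.1LG14g05990 is lower (0.587 to 2.35 against 9.54 to 16.7 FPKM).

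Over development the members rose more often in hulled than they fell. From 5 to 20 DAP 17 of 46 tested members were higher (37.0%), beside 19.8% of all genes, and 10 were lower (21.7%), beside 20.6%, in hulled seed coats. In hull-less seed coats 10 of 45 were higher (22.2%), beside 18% of all genes, and 12 were lower (26.7%), beside 23.1%. The median log2FC of 20 over 5 DAP was 0.36 in hulled and 0.16 in hull-less. By these calls 8 members rose in both accessions and 8 fell in both. The share of all genes that did so was not taken, so neither count is read as a trait of the members. Flavonol synthase Cp4.1LG02g10200 alone was called in opposite directions. It rose in hulled (log2FC 3.07 ± 0.28, edgeR, adjusted p = 6.21e-05) and fell in hull-less (-1.48 ± 0.49, edgeR, adjusted p = 0.0313). That fall was lost without any 1 of the 3 hull-less libraries of 5 DAP (adjusted p = 0.0610 to 0.0807) and with the replicate block (0.05199). Other members had opposite signs that passed the adjusted p in both accessions, with a value under the limit of 1. Among them, Cp4.1LG01g20480 was at 1.45 in hulled and -0.87 in hull-less (edgeR, adjusted p = 0.00117 and 0.00971). Flavanone 3-hydroxylase Cp4.1LG08g09200 was at 0.88 and -2.31 (edgeR, adjusted p = 0.00926 and 0.000854). Of the 48 members at 1 FPKM or more, 38 peaked at the same stage in both accessions, and the peak was at 20 DAP in 28 in hulled and 22 in hull-less. How often all genes peaked at the same stage was not counted.

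Members that rose in both accessions included 2 of the 3 B-ring hydroxylases and late transferases, while the third hydroxylase, Cp4.1LG04g14800, had a log2FC of 20 over 5 DAP of 0.66 in hulled and -0.67 in hull-less and was called in neither. The log2FC of 20 over 5 DAP of flavonoid 3′-hydroxylase Cp4.1LG03g15110 was 5.06 ± 0.49 in hulled and 6.32 ± 0.34 in hull-less, and that of flavonoid 3′,5′-hydroxylase Cp4.1LG05g02550 was 3.64 ± 0.30 and 5.11 ± 0.51. For glucosyltransferase Cp4.1LG02g02340 it was 3.77 ± 0.18 and 4.91 ± 0.20. Anthocyanidin 3-O-glucosyltransferase Cp4.1LG19g09500 went from 3 counts in the 3 hulled libraries of 5 DAP to 6649 at 20 DAP, a scaled ratio of 3097 (counting interval 1059 to 15022). Anthocyanidin reductase Cp4.1LG02g07070 passed the limits in hulled seed coats (1.30 ± 0.20, edgeR, adjusted p = 0.000813, against 0.75 ± 0.14 in hull-less), and the difference between the accessions was not called (-0.55 ± 0.29, edgeR, adjusted p = 0.194).

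Of the 8 members that fell in both accessions, 1 was a core enzyme, chalcone synthase. Tetraketide alpha-pyrone reductase Cp4.1LG16g03640, an enzyme of the pollen wall in Arabidopsis, was at 9.55, 8.22, and 11.2 FPKM in hulled and 9.06, 16.1, and 14.7 FPKM in hull-less at 5 DAP. It held 3 counts in all hulled and 2 counts in all hull-less libraries of 20 DAP, and the ratio of 5 to 20 DAP was 296 (counting interval 101 to 1439) in hulled and 671 (185 to 5544) in hull-less. Glucosyltransferase Cp4.1LG14g01440 fell in both accessions, with a log2FC of 20 over 5 DAP of -6.498 ± 0.49 in hulled and -6.54 ± 0.55 in hull-less. The C1-named MYB Cp4.1LG02g17570 fell from 5.52, 7.44, and 6.33 FPKM in hulled and 5.22, 5.86, and 6.71 FPKM in hull-less at 5 DAP, with a log2FC of -2.76 ± 0.23 and -3.05 ± 0.27. Chalcone synthase Cp4.1LG03g06560 fell with a log2FC of -1.02 ± 0.17 in hulled (-0.83, under the limit, without hulled replicate 3 of 20 DAP) and -3.97 ± 0.21 in hull-less.

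Whether the change from 5 to 20 DAP differed between the accessions was tested as a contrast in the fit of all 18 libraries. Of 49 members, 3 had a higher change in hull-less seed coats (6.12%), beside 6.03% of all genes, and 10 a lower one (20.4%), beside 7.85%. The median difference in log2 change was -0.29 for the members, beside -0.02 for all genes. Among 14 core enzymes 0 were higher and 6 lower, with a median of -1.12, and among 7 dioxygenases 0 were higher and 4 lower, with a median of -2.36. Both sets include Cp4.1LG14g10150, which was not called here and passed the filter only with its hulled libraries of 20 DAP. Chalcone synthase Cp4.1LG03g06560 differed by -2.95 ± 0.28 (edgeR, adjusted p = 1.20e-05) and flavonol synthase Cp4.1LG04g08250 by -2.36 ± 0.26 (edgeR, adjusted p = 3.62e-05). Without the 3 libraries richest in storage transcripts 7 of the 13 calls were kept and none was added. For cinnamate 4-hydroxylase, outside the members, 2 of 2 genes had a lower change in hull-less seed coats, beside the 7.85% of all genes given above.

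**Figure D4:**
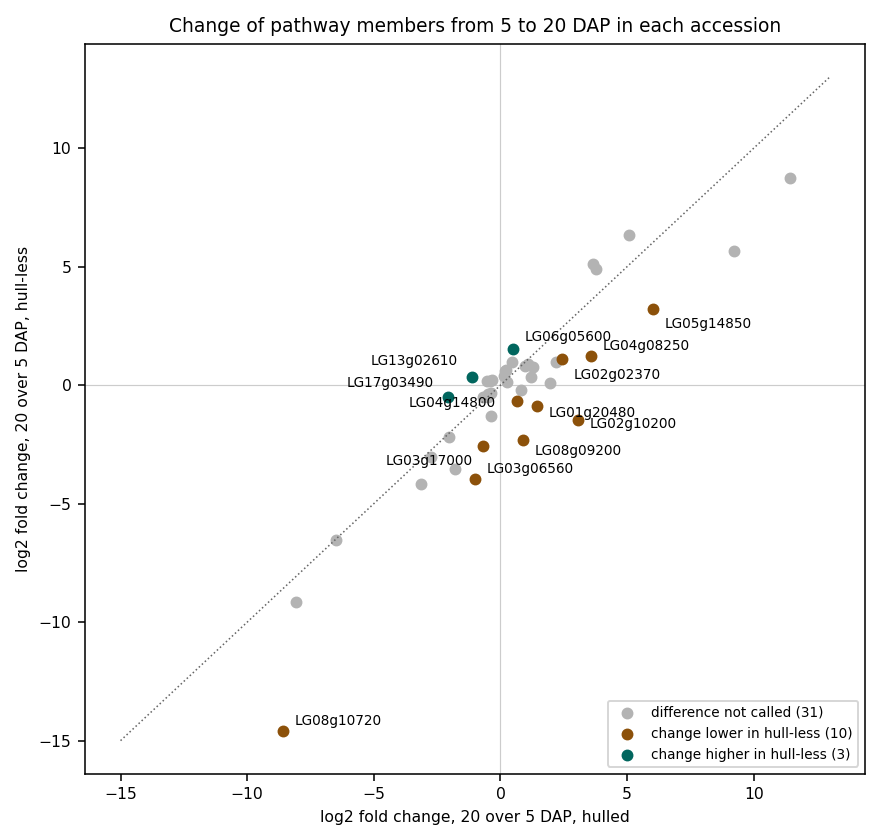
Log2FC of 20 over 5 DAP in hulled (x axis) and hull-less seed coats (y axis) for the 44 members tested in both, coloured where the difference between the accessions was called, with a dotted line of equal change. The 10 members with a lower change in hull-less lie below the line and the 3 with a higher change above it. Cp4.1LG02g10200 (3.07 in hulled, -1.48 in hull-less) lies in the quadrant of opposite signs, with Cp4.1LG01g20480, Cp4.1LG08g09200, and other members.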

How the data were processed

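The authors sequenced RNA of both seed coat types in 3 stages (5, 10, or 20 DAP), with 3 biological replicates per group. Reads of low quality were removed and the rest mapped to the zucchini genome. The deposited counts per gene are whole numbers and not normalized, and the counting tool and strand setting were not given in the sources used here. The deposited FPKM values, which per the methods come from Cufflinks, equalled count per gene length times a scale of the library. The deposited gene length (another column) was used for that check. Columns of the authors' own comparisons and group means were not used.

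Groups and replicate numbers came from the sample labels. The main test was edgeR's quasi-likelihood test (edgeR 4.0.16, R 4.3.3) on genes passing filterByExpr, TMM scaling, and Benjamini-Hochberg adjustment over all genes tested, fitted to the 6 libraries compared, or to all 18 for the difference between accessions. CPM values use TMM over 18 libraries. The SE is the absolute log2FC over the square root of F. Calls needed an adjusted p up to 0.05 and a log2FC (log2 fold change) of 1 or more in size. The floor for 0 counts was 3 counts per library, and intervals cover counting error only. No pair of replicates was alike within sampling noise. P-values measure the spread between these replicates, and the sources do not say how many plants each holds.

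Named were the core enzymes with a mean of at least 1 CPM in a group and, per comparison, up to 10 members per direction that were called, did not overlap between groups, and averaged 100 counts or more, with exceptions stated. Core models below that level are given by their counts. The members, classes, and lists were chosen with earlier results of these data known. As alternatives, upper-quartile and RLE scaling, DESeq2 1.42.0, other filters on low counts, a joint fit of all 18 libraries, a block for the replicate number, limma 3.58.1 on log2(FPKM + 1) or log2(FPKM + 0.1) for genes of at least 1 FPKM in 3 libraries, no fold-change limit, and leaving out each library were run. Leaving out the 3 libraries of 20 DAP richest in storage transcripts was added after seeing the data. The fits were tested on simulated data. Sequences were not used here.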

Additional observations from a re-analysis of the deposited data

Results flagged for a closer look

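For 13 members the change from 5 to 20 DAP differed between hull-less and hulled seed coats by the test of that difference in all 18 libraries. The values are differences in log2 change, hull-less minus hulled. The lower changes in hull-less seed coats were -5.99 for Cp4.1LG08g10720 (the glycosyltransferase model with a thaumatin domain), -4.56 for flavonol synthase Cp4.1LG02g10200, -3.17 for flavanone 3-hydroxylase Cp4.1LG08g09200, -2.95 for chalcone synthase Cp4.1LG03g06560, -2.78 for coumaroyltransferase Cp4.1LG05g14850, -2.36 for flavonol synthase Cp4.1LG04g08250, -2.33 for flavonol synthase Cp4.1LG01g20480, -1.87 for ANTHOCYANINLESS 2 member Cp4.1LG03g17000, -1.33 for flavonoid 3′-hydroxylase Cp4.1LG04g14800, and -1.32 for glucosyltransferase Cp4.1LG02g02370. The higher changes were 1.06 for glucosyltransferase Cp4.1LG06g05600, 1.48 for DETOXIFICATION 35 member Cp4.1LG13g02610, and 1.58 for ANTHOCYANINLESS 2 member Cp4.1LG17g03490.

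For Cp4.1LG08g10720 and Cp4.1LG01g20480 the call was lost in 10 of the 18 fits with a library left out (adjusted p = 0.0540 to 0.0793 and 0.0548 to 0.0736). For Cp4.1LG08g10720 it was also lost with the replicate block (-6.05, adjusted p = 0.0519) and in limma on log2(FPKM + 1) (-3.37, adjusted p = 0.253). It was lost for Cp4.1LG04g14800 without hulled replicate 1, hull-less replicate 1 of 5 DAP, or hull-less replicate 2 of 20 DAP (adjusted p = 0.0541 to 0.0578), and for Cp4.1LG06g05600 without hulled replicate 2 of 5 DAP or hulled replicate 3 of 20 DAP, where the difference was 0.97. The other 9 kept the call in each fit with a library left out. Cp4.1LG06g05600 also fell below 1 with upper-quartile scaling (0.98), the filter on 10 counts per library (0.99), and limma on log2(FPKM + 1) (0.94). Cp4.1LG01g20480 also lost its call in limma on log2(FPKM + 0.1) (-2.28, adjusted p = 0.0581).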

How the results depend on the processing

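No call of a named gene turned its direction under any alternative that was run. Of 84 called values of named genes 56 kept the call under every alternative and 28 lost it under at least 1, and 37 uncalled values passed under at least 1. The count of called members stayed within 1.5 times its main value except as follows. At 5 DAP it was 8, and 5 with limma on log2(FPKM + 1), 5 without the FPKM filter, and 14 with no fold-change limit. At 10 DAP it was 5, and 12 with a joint fit of all 18 libraries and 1 with the replicate block. From 5 to 20 DAP in hull-less seed coats it was 22, and 12 with at least 10 counts in every library and 34 with no fold-change limit. Without the 3 libraries of 20 DAP richest in storage transcripts it went from 20 to 13 at 20 DAP and from 13 to 7 for the difference between accessions. With each library left out in turn it ranged from 6 to 8 at 5 DAP, 3 to 7 at 10 DAP, 19 to 24 at 20 DAP, 28 to 31 over development in hulled, 21 to 26 in hull-less, and 10 to 15 for the difference. The stricter fits hold fewer genes or libraries, and the cause of these shifts was not tested. Shares of all genes called under the alternatives are not given here. The filter on 10 counts per library gave 7 higher and 7 lower members at 20 DAP, against 8 and 12. Upper-quartile scaling moved the median log2FC of all genes from -0.02 to -0.16 over development in hull-less seed coats. Same-numbered replicates did not deviate together throughout (correlations of -0.25 to 0.26 at 5 DAP), so the numbers were not taken as pairs. At 20 DAP the correlations were 0.19, -0.11, and 0.21 for replicates 1, 2, and 3. There 2 hull-less replicates correlated best with the hulled one of their number. At 20 DAP the replicate block gave 20 called members, and for the difference 12. Depth limits the chalcone synthase copies, dihydroflavonol reductase, and leucoanthocyanidin dioxygenase, whose few counts allow no statement on a difference.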

Other observations

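Members named after fatty acid metabolism share the chalcone isomerase fold, and the values below belong to genes chosen after they were seen. Fatty-acid-binding protein 2, Cp4.1LG02g05810, was at 7.38, 212, and 144 FPKM in hulled and 81.1, 65.7, and 97.6 FPKM in hull-less seed coats at 10 DAP, against 5.42 to 22.5 FPKM in the libraries of 5 and 20 DAP. Tetraketide alpha-pyrone reductase Cp4.1LG16g01990 was at 0.510, 17.2, and 11.6 FPKM in hulled and 14.6, 14.3, and 35.4 FPKM in hull-less at 10 DAP. In both genes hulled replicate 1 of 10 DAP lay below the other 5 libraries of that stage. BAHD acyltransferase Cp4.1LG16g01860 had 0 counts in all 9 hull-less libraries and 37 counts over the 3 hulled libraries of 20 DAP, at least 4.18-fold above the floor of 3 counts per library. Cp4.1LG00g11590 on the unplaced scaffolds has the same name and the same model length of 858 bases. How reads were split between these models is uncertain.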
